A study of Mus musculus with 2 samples.

Results

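The expressed snoRNA and scaRNA genes of the mouse hippocampus were described here. They are the genes whose symbol starts with Snord, Snora or Scarna followed by a digit and whose mean expected count over 2 libraries was at least 5. Of 150 annotated genes with such a symbol, 21 met the count, out of 55536 mouse genes in all. The members were chosen by these expected counts, so their levels are given as a description and carry no test. Both libraries were made from total RNA of the hippocampus of male B6CASTF1/J mice, an F1 hybrid of C57BL/6J and CAST/EiJ, aged 36 days. They form a single group with no treatment, no mutant and no other age. They are numbered biological replicates 1 and 2 and hold 28786216 and 29755033 expected counts. The labels name the tissue as layer of hippocampus without saying which part was dissected. They give both samples the same donor identifier but separate biosamples, so that 2 animals were used rests on the replicate numbers. All 7 hippocampal neuron markers and all 6 glial markers examined passed 1 TPM in both libraries, while Alb and Ins2, of liver and pancreas, had no count and Myh6, of heart, had 1.40 and 0.90 TPM.

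Small nucleolar RNAs are noncoding RNAs that sit in protein complexes and base-pair with other RNAs to direct their modification. Box C/D snoRNAs (Snord) guide methylation of the ribose by fibrillarin, and box H/ACA snoRNAs (Snora) guide conversion of uridine to pseudouridine by dyskerin, mostly in ribosomal RNA. Small Cajal body RNAs (Scarna) carry the same boxes and act on the RNAs of the spliceosome. In mammals most of them are cut from introns of host genes by debranching and trimming, and a few have promoters of their own.

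The members fell into 12 H/ACA snoRNAs, 5 scaRNAs and 4 C/D snoRNAs. The boxes that define the classes are shown in capitals in the following sequences, which were read from the GENCODE M21 transcripts of mm10 in the 5′ to 3′ direction. TGATGA within the first 20 bases is box C, CTGA within the last 12 bases is box D, and ACA with 3 bases after it is the ACA box. Scarna13 (chr12:105031075-105031349, minus strand) and Scarna6 (chr1:87784556-87784820, plus strand) are shown as scaRNAs of high count with different boxes. Of Scarna2 (chr3:108554338-108554751, minus strand) and Scarna10 (chr6:125186359-125186683, minus strand), the members with the highest counts, the last 100 bases are shown.
Scarna13: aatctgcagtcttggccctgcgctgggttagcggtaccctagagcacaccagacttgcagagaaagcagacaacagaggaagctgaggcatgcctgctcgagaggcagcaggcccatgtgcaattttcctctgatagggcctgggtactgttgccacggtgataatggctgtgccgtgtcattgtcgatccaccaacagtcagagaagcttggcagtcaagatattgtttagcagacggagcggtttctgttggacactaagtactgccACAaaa
Scarna6: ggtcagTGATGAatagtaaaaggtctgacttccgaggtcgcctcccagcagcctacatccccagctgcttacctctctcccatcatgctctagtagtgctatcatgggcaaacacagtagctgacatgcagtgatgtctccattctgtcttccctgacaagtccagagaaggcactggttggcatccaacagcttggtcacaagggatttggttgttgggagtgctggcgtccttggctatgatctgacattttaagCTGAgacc
Scarna2, bases 315 to 414: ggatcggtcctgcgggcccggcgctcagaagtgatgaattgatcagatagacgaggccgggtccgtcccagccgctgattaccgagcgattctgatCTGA
Scarna10, bases 226 to 325: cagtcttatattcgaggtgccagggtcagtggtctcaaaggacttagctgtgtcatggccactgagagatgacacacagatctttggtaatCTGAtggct

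The longest C/D member was Snord17 (chr2:144265979-144266216, minus strand). Snord15a (chr7:99482785-99482932) and Snord15b (chr7:99479563-99479707), both on the minus strand, are shown because they lie in the same host gene and differed in level. Snora73a (chr4:132352775-132352979) and Snora73b (chr4:132352322-132352526), also on the minus strand, are a pair of near-identical copies. Snora21 (chr11:97781639-97781775, minus strand) stands for the H/ACA members of ordinary length. Snord14c (chr9:40803583-40803668, plus strand) is a C/D RNA of 86 bases that had no count, and Snord118 (chr11:69073427-69073561, plus strand) one that stayed below the count minimum.
Snord17: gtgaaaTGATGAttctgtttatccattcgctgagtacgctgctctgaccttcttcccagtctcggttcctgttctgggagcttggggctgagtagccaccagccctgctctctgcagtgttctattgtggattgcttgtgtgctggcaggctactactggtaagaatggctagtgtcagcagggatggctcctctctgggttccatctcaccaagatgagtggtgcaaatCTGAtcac
Snord15a: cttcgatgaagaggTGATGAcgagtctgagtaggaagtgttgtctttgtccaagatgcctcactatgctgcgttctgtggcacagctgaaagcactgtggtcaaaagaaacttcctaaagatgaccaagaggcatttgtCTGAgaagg
Snord15b: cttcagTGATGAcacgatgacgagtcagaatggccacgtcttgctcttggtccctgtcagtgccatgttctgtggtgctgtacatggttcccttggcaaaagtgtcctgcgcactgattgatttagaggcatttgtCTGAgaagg
Snora73a: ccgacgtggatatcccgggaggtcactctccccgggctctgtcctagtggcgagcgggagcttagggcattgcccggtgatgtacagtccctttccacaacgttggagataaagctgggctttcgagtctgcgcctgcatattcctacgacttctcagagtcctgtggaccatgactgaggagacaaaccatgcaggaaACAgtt
Snora73b: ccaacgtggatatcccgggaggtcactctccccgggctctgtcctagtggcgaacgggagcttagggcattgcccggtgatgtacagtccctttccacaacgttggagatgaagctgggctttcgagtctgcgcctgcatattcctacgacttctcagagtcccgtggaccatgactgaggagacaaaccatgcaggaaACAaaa
Snora21: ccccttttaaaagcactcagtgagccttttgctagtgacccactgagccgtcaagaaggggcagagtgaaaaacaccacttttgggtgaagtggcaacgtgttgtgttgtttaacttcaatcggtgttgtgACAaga
Snord14c: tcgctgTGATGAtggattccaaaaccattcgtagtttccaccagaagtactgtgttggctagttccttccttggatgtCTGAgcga
Snord118: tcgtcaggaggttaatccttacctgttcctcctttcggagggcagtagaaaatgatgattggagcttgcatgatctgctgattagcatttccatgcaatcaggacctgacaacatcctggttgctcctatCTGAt

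The boxes followed the classes in the C/D and H/ACA members and less so in the scaRNAs. Box D was found in 4 of 4 C/D members and box C in 3 of 4, the exception being Snord22. The ACA box was found in 10 of 12 H/ACA members and in none of the C/D members. Among the 5 scaRNAs, 3 had box D, 2 had box C and 1 had the ACA box at that place, which was Scarna13. Only the transcript strand was searched. The same windows held box C in 0.699%, box D in 5.77% and the ACA box in 2.45% of 141515 annotated transcripts of at least 60 bases. Genes of the pattern below the count minimum had the boxes about as often, with box D in 82 of 95 C/D genes and the ACA box in 25 of 30 H/ACA genes. The median GC content was 51.6% over the 21 members, with a range of 43.5% to 64.1%.

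Short genes of the pattern were not counted. None of the 89 annotated genes of 99 bases or less had a count in either library. Of these, 87 were C/D and 2 were scaRNAs. The gene tables list an effective length, the number of positions at which a read can start, that is 99 bases below the transcript length for every longer gene with 1 transcript. It is listed as 0 for all shorter ones. The same held outside the pattern, since none of the 2398 mouse genes of 99 bases or less had a count. A gene of this length listed at 0 is therefore one for which the tables could hold no value, and its level was not measured. This applies to most C/D RNAs, whose median annotated length was 84 bases, and to no H/ACA RNA, since all 42 of them reach 100 bases.

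Several RNAs with known roles could not be counted, or had few or no counts. Snord14a, Snord14c, Snord14d and Snord14e, copies of an RNA needed for 18S ribosomal RNA processing in yeast, are 86 to 90 bases long. Snord64, Snord107 and the 17 annotated copies of Snord116, which come from the imprinted Snrpn-Ube3a region on chromosome 7, are 67, 70 and 94 bases long. Snord13 at 104 bases and Snord8 at 110 bases passed the length but had effective lengths of 5 and 11 bases and no count in either library, where a count of 0 allows up to 3 counts. Snord118, an RNA of 135 bases that vertebrates need for 28S and 5.8S ribosomal RNA processing, had 3 counts in replicate 1 and 3 in replicate 2, at 4.05 and 3.86 TPM.

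Among the 61 genes of at least 100 bases, 43 had a count in at least 1 library and 21, or 34.4%, were members. None of the 7 genes of at least 100 and under 120 bases were members. From 120 to under 140 bases 7 of 38 were, from 140 to under 200 bases 7 of 9, and at 200 bases or more 7 of 7. The median of the mean expected count along the same bins was 0, 0.635, 14.0 and 766. Spearman's rho of length and mean expected count was 0.563 over the 61 genes and 0.789 over the 21 members. Pearson's r with the log2 of the count plus 0.5 was 0.791 and 0.850. These are correlations across genes that share their libraries, so no p is given. Longer genes have more positions at which a read can start, so counts depend on length even at an equal level. By TPM, which divides by effective length, the members of 200 bases or more had at least 148.0. Shorter members had 6.3 to 706.3 TPM. How much of the rise in counts comes from the number of read positions was not tested. The members were also chosen by their counts.

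**Figure D1:**
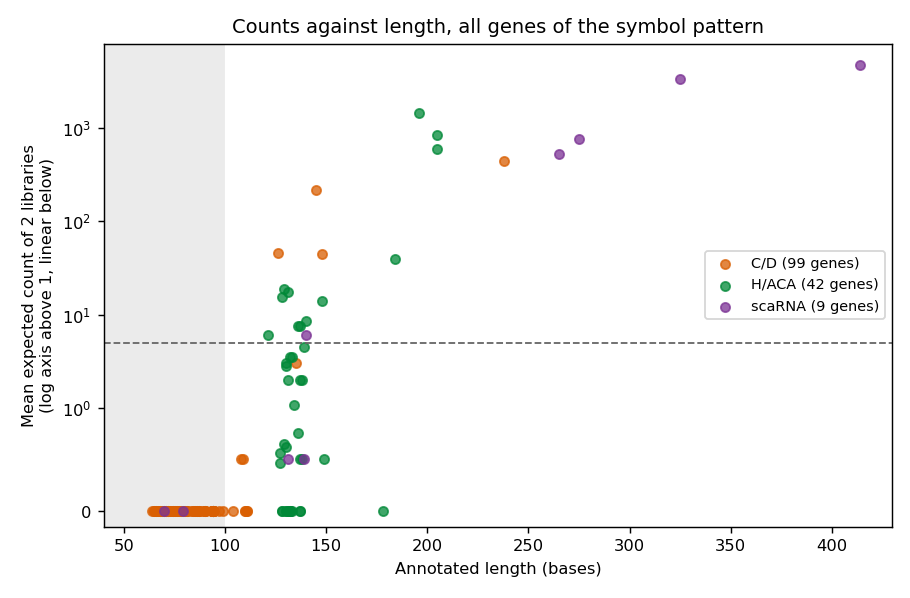
Mean expected count of the 2 libraries (vertical axis, log above 1 and linear below) against annotated length in bases for the 150 genes of the symbol pattern, coloured by class. The shaded range ends at 99 bases, where all 89 genes lie at 0, and the dashed line is the minimum of 5 counts that the 21 members pass.

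The scaRNAs held most of the members' counts. They took 71.5% of member counts in replicate 1 and 71.7% in replicate 2, with H/ACA members at 22.8% and 22.6% and C/D members at 5.71% and 5.63%. TPM, which divides by effective length, was spread more evenly. Effective length was 22 bases for Snora26 and 315 bases for Scarna2 in the gene tables. For members with a short effective length a few reads move TPM a lot, so TPM of short members is unstable. By TPM the scaRNAs took 47.05% in replicate 1 and 47.49% in replicate 2, the H/ACA members 39.7% and 39.44%, and the C/D members 13.25% and 13.06%. All 21 members together made up 0.0444% and 0.0462% of gene counts in replicates 1 and 2, and 0.378% and 0.387% of gene TPM. In tissue, fewer cells of a type and less RNA per cell cannot be told apart in these sums.

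Scarna2, which in human cells guides methylation of the U2 spliceosomal RNA and has its own promoter, had the highest count. It had 4701 expected counts in replicate 1 and 4869 in replicate 2, which corresponds to 725.8 and 716.7 TPM. It lies on chromosome 3 in no annotated host gene. Its scaled count in replicate 1 was 0.993 times that in replicate 2, with an exact 95% interval of 0.954 to 1.03. Scarna10, a composite scaRNA with both kinds of box that guides modification of the U5 spliceosomal RNA in human cells, followed with 3135 and 3629 expected counts, at 674.6 and 744.6 TPM. It was the member with the largest difference relative to its counting error.

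Scarna13, a scaRNA in an intron of the noncoding gene Snhg10 on chromosome 12, had 755 and 777 counts in replicates 1 and 2, at 208.6 and 204.7 TPM. Scarna6, in an intron of the autophagy gene Atg16l1 on chromosome 1, had 511 and 538 counts, at 149.7 and 150.3 TPM. The TPM of the 2 libraries nearly coincided for each of these RNAs. Scarna3a, at 140 bases the shortest scaRNA member, had 6 counts in each library, at 7.12 and 6.79 TPM. The scaRNA members therefore spanned 6 to 4869 counts, and 4 of the 5 were at least 200 bases long.

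The H/ACA members were led by 3 RNAs that are longer than most of their class. Snora74a, of 196 bases on chromosome 18, had 1400.7 expected counts in replicate 1 and 1477.6 in replicate 2, at 702.2 and 706.3 TPM. Snora73b and Snora73a are copies of an RNA that takes part in 18S ribosomal RNA processing in vertebrates rather than only in guiding modification. Snora73b had 375.1 TPM in each library, from 817.5 and 857.5 counts. Snora73a had 253.3 and 274.9 TPM, from 552.2 and 628.4 counts. All 3 stood far above the other H/ACA members, the next of which by mean TPM was Snora44 at 21.9 and 37.6 TPM.

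Snora73a and Snora73b lie side by side and match at 198 of 205 aligned bases, an identity of 96.6%. The longest stretch without a difference was 56 bases. Snora73b took 59.7% of the pair's rounded counts in replicate 1, with an exact Clopper-Pearson 95% interval of 57.1% to 62.3%, and 57.7% in replicate 2, with an interval of 55.2% to 60.2%. The intervals overlapped between the libraries. They cover counting error only, and how reads were divided between the copies rests on the authors' model. Its posterior standard deviation for Snora73a was 6.92 and 6.29 counts in replicates 1 and 2. The transcript Snhg3-202 covers 77.6% of Snora73a, and no exon of Snhg3 covers Snora73b. That transcript had 40.2 and 49.3 expected counts in replicates 1 and 2. Reads over Snora73a can be assigned to it or to the snoRNA, so the shares of the pair are not read as unequal levels.

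The other 9 H/ACA members had mean counts of 5.995 to 39.0. Snora23, of 184 bases in an intron of the importin gene Ipo7, had 40 counts in replicate 1 and 38 in replicate 2, at 22.9 and 20.7 TPM. Snora78 had 16 and 15 counts, and Snora68 had 19.5 and 15.7. These are members of moderate to low count whose libraries differed by few reads. Snora44 had 13.5 and 24.4 counts, Snora57 had 10 and 18, and Snora7a had 11.6 and 5.57. Snora21 had 9 and 6, Snora5c had 6.43 and 8.45, and Snora26 had 6.51 and 5.48. Of these 9, replicate 1 had the higher count for some and the lower for others.

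Of the C/D members, Snord15b stood highest per length, at 228.5 TPM in replicate 1 and 222 in replicate 2, from 216.2 and 220.3 counts. Snord17, of 238 bases in an intron of the sorting nexin gene Snx5, had 148 and 152.4 TPM, from 423 and 457 counts. Snord22, an RNA that Xenopus oocytes need for 18S ribosomal RNA maturation, had 74.2 and 86.2 TPM, from 41.2 and 50.2 counts. Snord15a had 46.6 and 40.7 TPM, from 47 and 43 counts. Ordered by TPM, these 4 did not overlap each other, and their order was the same in both libraries.

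Snord15a and Snord15b lie in the same gene, Rps3, which encodes a ribosomal protein. Their levels differed although the host is shared. Snord15b took 82.1% of the pair's rounded counts in replicate 1 (exact 95% interval 77.0% to 86.6%) and 83.7% in replicate 2 (78.6% to 87.9%). Per effective length it was 4.90 and 5.46 times higher in the 2 libraries. The pair matched at 105 of 158 aligned positions, an identity of 66.5%. A retained-intron transcript of Rps3 covers all of Snord15b, and no transcript exon covers Snord15a. That transcript had 68.2 and 60.5 expected counts, and reads over Snord15b can be assigned to it or to the snoRNA.

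Over all 21 members, the order by TPM was Scarna2, Scarna10 and Snora74a first, whose ranges over the libraries overlapped from one to the next. In the whole order, 9 of 20 neighbouring pairs overlapped. The lowest was Scarna3a, apart from its neighbour Snora21, while Snora57, Snora26, Snora7a and Snora5c each overlapped the next in the order, the last of these being Snora21. The 5 highest members by TPM held 72.8% of member TPM in replicate 1 and 73.4% in replicate 2. Just inside the minimum lay Snora5c, Scarna3a and Snora26, with mean counts of 7.44, 6.00 and 5.995. Just outside it were Snora43, Snora9 and Snora17, with 4.435, 3.53 and 3.50. Snora43 has a further, overlapping entry of 127 bases, with 1.08 and 0.05 counts in replicates 1 and 2. How reads were divided between these entries rests on the authors' model, so the place of Snora43 below the minimum depends on that division.

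**Figure D2:**
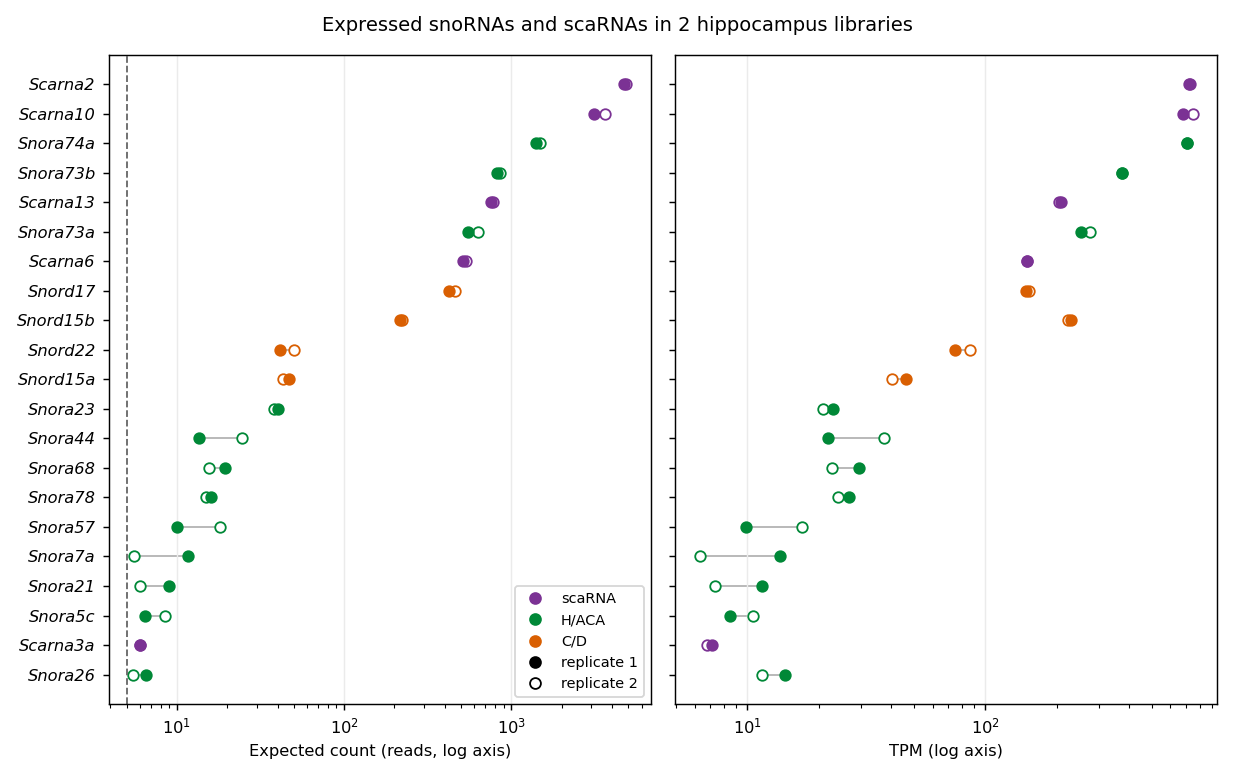
Expected counts (left) and TPM (right) of the 21 members on log axes, filled points for replicate 1 and open points for replicate 2, coloured by class and ordered by mean count. The dashed line is the minimum of 5 counts. The 9 members above 100 counts nearly coincide between the libraries, and the spread widens below 20 counts.

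Replicate 1 was set against replicate 2 gene by gene. Rounded counts entered a two-sided exact binomial test after TMM scaling, and p-values were adjusted by Benjamini and Hochberg's method over the 20090 genes whose mean count reached 5. Genes were called apart at an adjusted p under 0.05 and at least 1.5-fold. None of the 21 members was apart, where 1.87% of all genes tested were. At an unadjusted p under 0.05 there was 1 member, Scarna10, against 20.5% of all genes. The test compares these 2 libraries on counting error alone and has no replicate check. By log2 ratio of replicate 1 over replicate 2, 9 members were positive, 11 were negative and Scarna13 was at 0.00. The members' median was -0.01 and that of all genes tested 0.00.

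Scarna10 was 0.889-fold in replicate 1 relative to replicate 2, with an exact 95% interval of 0.847 to 0.933. Its adjusted p was 4.61e-05 in the exact binomial test, and its difference was below the fold minimum of 1.5. With no fold minimum, 2066 of the 20090 genes tested were apart, and Scarna10 was the only member among them. The small gene Gm28967 is annotated on Scarna10. Replicate 2 was also the library with higher choroid plexus markers. Of 12 markers of that tissue, 10 were apart and all of these were higher in replicate 2, and none was at 0 in either library. Their summed levels were 63.6 TPM in replicate 1 and 272 TPM in replicate 2. Of these sums Enpp2 held 52.39 and 75.44 TPM in replicates 1 and 2, and Ttr 3.62 and 179.2 TPM. None of the 7 hippocampal neuron markers was apart. Their log2 ratios of replicate 1 over replicate 2 ran from -0.495 for Prox1 to 0.247 for Wfs1. Below the fold minimum, the exact binomial test gave adjusted p of 2.627e-64 for Prox1 and 2.157e-63 for Camk2a, both higher in replicate 2. This test gave 1.808e-15 for Wfs1 and 4.303e-06 for Neurod6, both higher in replicate 1. For Slc17a7, Cpne4 and Gad1 it gave 0.5879, 0.1758 and 0.7223. The part of choroid plexus or neuronal cells in the difference of Scarna10 was not tested.

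The 9 members with at least 100 counts had log2 ratios between -0.17 and 0.015. Their exact intervals were narrow and, for these 9, lay within 1.5-fold on both sides. Of the 21 members, 4 had ratios beyond 1.5-fold, and each had a mean count under 20. Snora7a was 1.98-fold higher in replicate 1, but its interval ran from 0.715 to 6.68. Snora21 was 1.504-fold higher in replicate 1, with an interval of 0.491 to 5.27. Snora57 in replicate 1 was 0.584 times replicate 2 and Snora44 0.609 times, with intervals of 0.236 to 1.31 and 0.287 to 1.21. For these RNAs a difference of such size was not detectable at this depth.

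**Figure D3:**
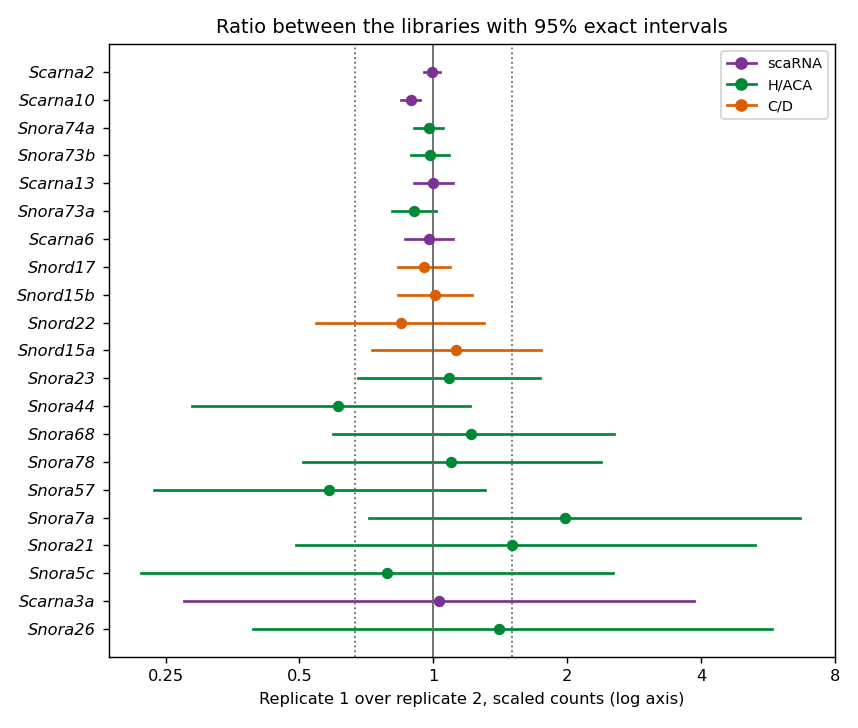
Ratio of scaled counts of replicate 1 over replicate 2 on a log axis for the 21 members, with exact 95% Clopper-Pearson intervals as bars; the solid line is 1 and the dotted lines are 1.5-fold in each direction. Only the interval of Scarna10 leaves out 1.

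Most members lie within a host gene. A host was taken as the gene on the same strand, not itself a small RNA, whose span holds the whole member, and the shortest one where several do. Of the 21 members, 19 had a host, and Scarna2 and Snora57 had none. There were 17 hosts, 10 of them protein-coding and 7 noncoding. Among them were the ribosomal protein genes Rps3, which held Snord15a and Snord15b, Rpl32, which held Snora7a, and Rpl23, which held Snora21. The noncoding hosts were Snhg1, Snhg3, Snhg9, Snhg10, Snhg12, Dancr and AC121821.1. Snora73a and Snora73b also lie within Rcc1, whose span is longer than that of Snhg3. Snora74a also lies within Gm28285, which was not taken as its host.

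At least 50% of the member lay in an annotated exon of the host for 10 of the 19, and 9 were intronic. When retained-intron transcripts were left out, 4 of these 10 remained exonic. These were Snora73a, Snora44, Snora7a and Snora26. Reads over an exonic member can be assigned to the member or to the host transcript, and a read within an intron may come from the processed RNA or from the unspliced host, which the tables do not separate. Read sharing was marked by a cut set here, a count that is not whole with a posterior SD of at least 1% of it. The cut marked 7 of the 21 members, all of them exonic. Sharing is not confined to these, since only 10 of the 21 members had whole counts in both libraries. The intronic Snora73b fell under the cut, with posterior SDs of 6.54 and 5.88 counts in replicates 1 and 2. For Snora7a the covering transcript of Rpl32 had 63.7 and 76.5 expected counts in replicates 1 and 2.

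Members and hosts differed in level in both directions. Of the 19, 11 had a higher TPM than the host in both libraries and 7 a lower one, and Snora44 lay on different sides in the 2 libraries. Snora74a had 76.2 and 81.6 times the TPM of AC121821.1, and Scarna10 had 69.6 and 70.9 times that of Ncapd2, a condensin subunit gene. Snora73b had 44.8 and 50.3 times the TPM of Snhg3, which had 8.37 and 7.46 TPM. At the other end, Snora7a had 0.0762 and 0.0343 times the TPM of Rpl32, and Snora21 0.0797 and 0.0521 times that of Rpl23. All 6 members of at least 200 bases with a host lay above it, against 5 of 13 shorter ones. Some of these ratios rest on few reads. Snhg9, the host of Snora78, had 2 and 1 counts in replicates 1 and 2, and Snora26, above its host Dancr, had 6.51 and 5.48.

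Across the 19 members, Spearman's rho of the mean expected count and the host's mean TPM was -0.311, and Pearson's r of the log2 values with 0.5 added was -0.348. Members share libraries, and some share a host, so no p is given. Over the 13 members of under 200 bases rho was 0.00. Rpl32 had 180.7 TPM in replicate 1 and 183.7 in replicate 2, Rpl23 had 144.5 and 140.6, and Rps3 had 104.6 and 98.9, and the members in these 3 genes ranged from 6.30 to 228.5 TPM. Between the libraries, the ratio had the same sign in member and host for 6 of the 19. Several host ratios were small, such as a log2 of -0.013 for Rps3, and that of Snhg9 rested on 2 and 1 counts. No conclusion is drawn from these signs.

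**Figure D4:**
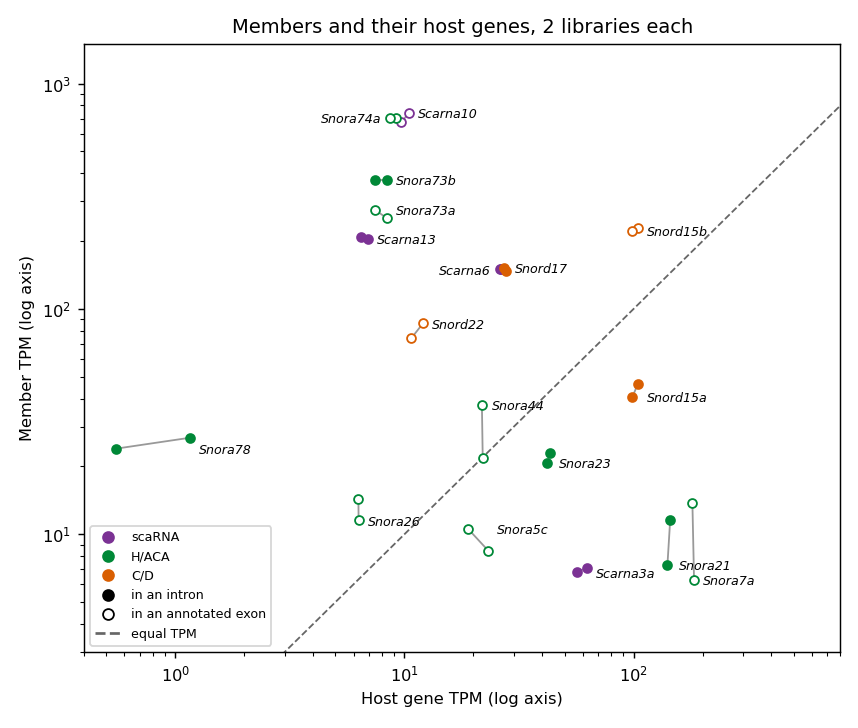
TPM of each member against TPM of its host gene on log axes, 18 members with 1 point per library joined by a line, coloured by class; open points mark members in an annotated exon of the host. The dashed line is equal TPM. Members of noncoding hosts lie above the line, except Snora44 in replicate 1, and those in Rps3, Rpl32 and Rpl23 below it, except Snord15b.

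Some members hold or face other annotated genes. The micro-RNA genes Mir3069 and Mir1843b lie on Scarna13 and Scarna3a, and the small gene Gm49347 overlaps Snora74a. On the opposite strand, Snora78 overlaps Rps2, Snora57 overlaps Lbhd1, Snora23 overlaps 1600010M07Rik, and the Snora73 pair overlaps Gm17300. Whether counting used strand is not given in the sources used here. Reads of the opposite gene therefore cannot be told apart from those of these members. Snhg9, the host of Snora78 on its own strand, had 1.16 TPM in replicate 1 and 0.55 in replicate 2.

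The second transcript tables, which hold estimated counts derived from the reads in another way, listed few of these RNAs. In them 19 of the 21 members had no count in either library. Scarna2 had 1350 and 1429 counts in replicates 1 and 2, which was 28.7% and 29.3% of its count in the gene tables, and Scarna10 had 0 and 2. This followed length for other genes too. Genes with 1 transcript and a mean count of at least 5 in the gene tables were followed by length. From 100 to under 200 bases 107 of 107 were at 0 in the second tables, and from 200 to under 300 bases 78 of 87 were. The median second count was 50% of the first from 400 to under 600 bases, 83.3% from 600 to under 1000 bases and 108.9% from 1000 bases up. The effective length of Scarna2 was 113 and 112 bases in the second tables of replicates 1 and 2, against 315 in the gene tables, and its TPM there was 790.0 and 827.6, against 725.8 and 716.7 in the gene tables. For the 19 members at 0 the second tables give no level to set beside the first.

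**Figure D5:**
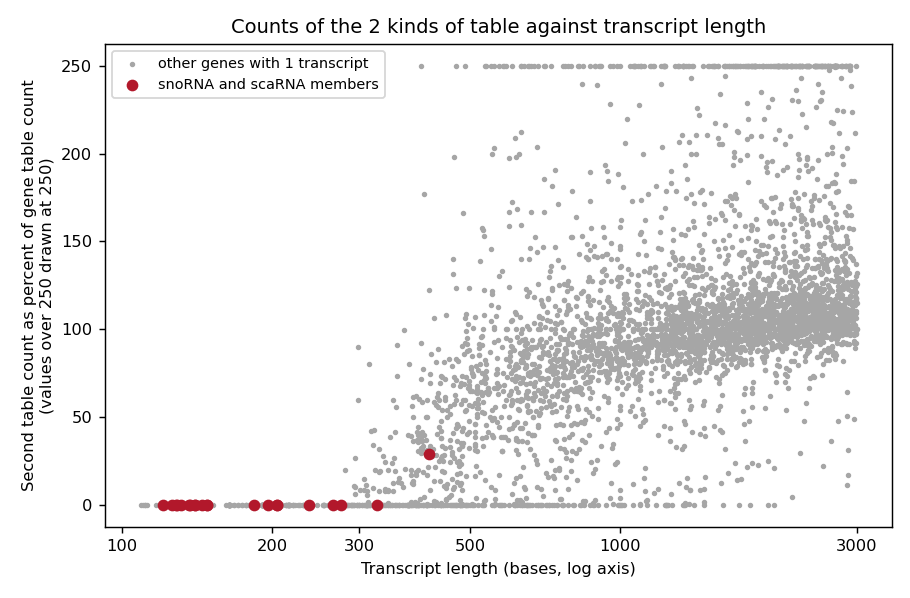
Count in the second tables as a percent of the count in the gene tables, summed over both libraries, against transcript length on a log axis, for genes with 1 transcript and a mean count of at least 5. Red points are the members, of which Scarna2 alone lies visibly above 0 and Scarna10 lies near 0. Genes longer than the axis are not drawn, and the highest values are drawn at the top.

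The genes of the proteins that build and use these RNAs were expressed in both libraries. All 4 box C/D core genes passed 1 TPM. Nop56 and Nop58, scaffold proteins of the particle, had 61.9 ± 7.14 and 22.4 ± 2.22 TPM (SD, n = 2), Snu13, which binds the box motif, 42.5 ± 1.51 TPM, and the methyltransferase gene Fbl 21.6 ± 0.644 TPM. The H/ACA core genes lay lower as a group, with Nop10 at 20.7 ± 0.0283, Gar1 at 17.4 ± 0.870, Nhp2 at 17.2 ± 1.12 and Dkc1, the pseudouridine synthase, at 12.1 ± 1.10 TPM. Summed, the C/D core genes had 153.5 and 143.3 TPM in replicates 1 and 2 and the H/ACA core genes 65.3 and 69.6 TPM. Of 30 pathway symbols listed, 29 were found, and the other, Papd5, is an older symbol of Tent4b, which was listed too. All 29 passed 1 TPM in both libraries, and none was apart by the exact binomial test in either direction, against 1.87% of all genes.

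Genes for the other steps ranged from 2.69 to 20.8 TPM in their means. Wrap53, which takes scaRNAs to Cajal bodies, had 4.51 ± 0.240 TPM (SD, n = 2) and Coil, the marker protein of these bodies, 8.09 ± 0.608 TPM. The debranching enzyme gene Dbr1 had 4.97 ± 0.0424 TPM, and the exonucleases of 3′ trimming Exosc10 and Parn had 20.8 ± 0.0778 and 10.7 ± 0.983 TPM. The assembly factor gene Shq1, a chaperone of dyskerin, was the lowest of the 29 at 2.69 ± 0.339 TPM.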

How the data were processed

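Total RNA of 2 hippocampus samples was analysed from tables deposited for each library. The authors' gene tables give an expected count, TPM, length and effective length per gene, with columns as RSEM writes them per the file headers; the second transcript tables give an estimated count and TPM with columns as kallisto writes them. Build mm10 and annotation GENCODE M21 are named per the deposited file descriptions; the sources used here name no program version, aligner or strand setting. TPM was scaled by the authors over all entries.

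Expected counts were rounded before tests. Scaling used TMM (edgeR 4.0.16, R 4.3.3), with DESeq2 1.42.0 size factors as an alternative. With 1 group no model of conditions could be fitted. Folds add 0.5 to each count. Intervals are exact and cover counting error only, since PCR copies are counted too. ERCC spike-ins held 0.421% and 0.408% of counts in replicates 1 and 2 and were left out. Read sharing was marked where a count was over 0.005 from whole with a posterior SD of at least 1% of it. The members, hosts, lists and named genes were chosen with earlier results of these data known. Named members are in each class the 8 highest by count and 4 highest by TPM, the 3 genes on each side of the minimum, members apart and families with known roles; other low members are named to account for all. Python 3.11.15, scipy 1.17.1 and matplotlib 3.10.9 were used, and the test was tried on simulated data. The values of 1 host gene are not reported here, and its member is not drawn in the plot of hosts.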

Additional observations from a re-analysis of the deposited data

How the results depend on the processing

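None of the 21 members was apart under TMM, DESeq2 size factors, gene totals, ERCC totals, a minimum of 10 counts, no minimum, a 2-fold minimum, or without genes that share reads (14 members tested); without a fold minimum there was 1, Scarna10. The second tables allowed a test of 1 member, which was not apart. Of all genes 376 were apart, and 342 to 406 under other scalings, filters and the second tables, but 216 without genes that share reads, 218 at 2-fold and 2066 with no fold minimum. The members' median log2 ratio stayed between -0.05 and 0.02. The number of members was 1 by the second tables and 68 when every annotated snoRNA or scaRNA gene was taken, an alternative chosen after seeing the data; it was 16 at a minimum of 10 counts, and 21 to 22 when 1 library was left out. The share of gene counts was 0.0444% to 0.0462% with 1 library left out, and 0.00471% in the second tables. The share of gene TPM was 0.378% to 0.387%, and 0.0818% in the second tables. Exonic members numbered 4 without retained introns. The rank correlation with host TPM was -0.388 by member TPM, -0.533 for 9 intronic members, 0.0 for 13 members under 200 bases (added after seeing the data), and -0.352 to -0.338 with 1 library left out. The cause of these shifts was not tested. A test between the libraries ends when either is left out. No paired analysis was possible because there is 1 group.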

Other observations

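Other genes annotated as snoRNA or scaRNA whose symbols fall outside the pattern numbered 1409. Of the 1036 with at least 100 bases, 47 had a mean count of at least 5, or 4.54%, against 34.4% of the 61 genes of the pattern with at least 100 bases. These shares come from the count rule itself and were not tested. The 2 sets also differ in length. From 120 to under 140 bases there were 792 other genes and 38 of the pattern, and at 200 bases or more 32 and 7. Of those at 200 bases or more, 14 of the 32 other genes and 7 of the 7 of the pattern met the count. The highest by count were Gm22009 and Gm25395, scaRNA genes of 343 and 272 bases with 1067 and 1180, and 1069 and 1087, expected counts in replicates 1 and 2. By TPM the highest was Gm22988, a snoRNA gene of 144 bases at 732.9 and 767 TPM. The copies of Rnu3b on chromosome 11, which encode the processing RNA U3, were also there, and are annotated as 4 genes of 215 bases and 4 of 216 bases at the same starts, all of which share reads. Each gene of 215 bases had 300.2 and 438 counts in replicates 1 and 2, and each of 216 bases had 100 and 24.5. The 2 kinds of entry cover the same loci, and how reads were divided between them rests on the authors' model. Their opposite directions between the libraries are therefore not read as a difference in level.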
